A study of Homo sapiens with 17 samples.

Results

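Naive-only H3K4me1 tiles are 500 bp stretches of the autosomes that carried H3K4me1 in naive human pluripotent stem cells (PSCs) and had few or no reads in primed PSCs. They were selected on the measured values themselves. A tile was taken when its log2 RPM, the reads of the tile scaled to the mapped reads of the library, was above 1 in both naive libraries and below -1 in all 3 primed libraries. The rule took 6694 of 5750013 autosomal tiles (0.116%), and merging adjacent tiles gave 5123 regions with a summed length of 3347 kb. Because all 5 libraries were used to choose them, the H3K4me1 levels of these tiles are given as a description and no test between the states was run on them.

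H3K4me1 was profiled by CUT&RUN with the Abcam antibody ab8895 in naive and primed PSCs with the same genome, both of WA09/H9 NK2, cells of H9, an established line of human embryonic stem cells. Naive PSCs were grown on Matrigel in t2iL+PKCi, a medium with the MEK inhibitor PD0325901, the GSK3 inhibitor CHIR99021, human LIF and the PKC inhibitor Go6983, and primed PSCs were grown on Vitronectin in TeSR-E8. Both cell types were kept at 5% O2. Promoter Capture Hi-C (PCHi-C) of the same cell types had 2 replicates each, which the authors combined into 1 interaction list per cell type, and Hi-C had 1 library per cell type. All libraries came from 1 cell line, so the values describe these cultures, and the pluripotent state cannot be told apart from the medium and coating that go with it.

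H3K4me1 is laid down at enhancers and at the flanks of active promoters, and marks enhancers that are active as well as enhancers that are primed for later use. Naive PSCs resemble the cells of the pre-implantation epiblast and primed PSCs those of the epiblast after implantation, and each state is held by its own set of transcription factors and signals. In PCHi-C, chromatin is cut with HindIII, DNA ends held near each other by the chromatin are joined, and pairs that contain a promoter fragment, the bait, are captured. The fragment at the other end of a pair that passes the scoring is called the partner fragment.

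The sequences below are shown because they are the strongest naive-only tiles of loci that the results turn on. Each is 300 bp of GRCh38 on the plus strand, taken from the member tile with the highest mean naive level in its locus, at the window with the most motif matches. Capitals mark exact matches, on either strand, to 15 short motifs that are spelled out with the sequence results. The TRIM60 and TRIM61 window holds no match to them.
MEG3, intron, chr14:100809047-100809346: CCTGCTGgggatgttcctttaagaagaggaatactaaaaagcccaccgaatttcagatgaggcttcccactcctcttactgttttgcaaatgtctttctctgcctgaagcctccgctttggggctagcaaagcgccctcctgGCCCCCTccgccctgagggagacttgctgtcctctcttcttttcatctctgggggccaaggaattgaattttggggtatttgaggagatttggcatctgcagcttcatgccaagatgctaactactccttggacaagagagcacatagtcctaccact
TRIM60 and TRIM61, intergenic, chr4:165005601-165005900: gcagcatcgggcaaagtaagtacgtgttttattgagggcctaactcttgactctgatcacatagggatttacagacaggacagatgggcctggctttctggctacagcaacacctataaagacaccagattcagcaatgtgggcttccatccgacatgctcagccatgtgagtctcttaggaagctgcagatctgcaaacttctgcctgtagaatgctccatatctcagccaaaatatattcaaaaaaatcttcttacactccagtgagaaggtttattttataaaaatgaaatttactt
IL6ST and ANKRD55, intron of the lncRNA ENSG00000249236, chr5:56089101-56089400: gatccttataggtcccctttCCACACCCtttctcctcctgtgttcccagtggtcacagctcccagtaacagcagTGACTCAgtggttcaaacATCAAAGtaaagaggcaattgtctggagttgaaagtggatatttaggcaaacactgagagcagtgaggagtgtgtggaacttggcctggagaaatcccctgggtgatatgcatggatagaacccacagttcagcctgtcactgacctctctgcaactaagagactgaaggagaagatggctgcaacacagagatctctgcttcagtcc
DPPA5 and OOEP, DDX43 intron, chr6:73398601-73398900: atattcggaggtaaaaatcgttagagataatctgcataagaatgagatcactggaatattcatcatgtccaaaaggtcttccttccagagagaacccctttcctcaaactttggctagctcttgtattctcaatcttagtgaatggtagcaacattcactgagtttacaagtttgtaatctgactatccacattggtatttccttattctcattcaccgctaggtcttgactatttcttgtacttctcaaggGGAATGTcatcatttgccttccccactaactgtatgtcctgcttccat
KLF5, promoter of a non-coding gene, chr13:73113105-73113404: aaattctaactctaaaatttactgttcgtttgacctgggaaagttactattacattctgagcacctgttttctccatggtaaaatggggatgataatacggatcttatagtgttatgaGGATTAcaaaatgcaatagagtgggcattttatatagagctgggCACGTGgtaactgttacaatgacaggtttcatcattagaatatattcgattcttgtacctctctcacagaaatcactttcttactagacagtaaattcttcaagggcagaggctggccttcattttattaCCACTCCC

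The tiles stood far apart between the states in every library, as the rule demands. Their log2 RPM ran from 1.01 to 2.87 with a median of 1.36 in naive replicate 1, and from 1.05 to 2.67 with a median of 1.33 in naive replicate 2. In primed replicates 1, 2 and 3 the medians were -3.15, -1.98 and -2.15, and the highest values were -1.15, -1.40 and -1.03. The median difference between the state means was 3.82 on the log2 scale, with 2.26 as the lowest and 5.65 as the highest. The gap from the lower naive to the highest primed library had a median of 3.03 and ran from 2.05 to 5.13.

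Depth set how many reads stood behind these values. The libraries held about 21790000 and 6740000 reads in naive PSCs and about 8850000, 7890000 and 26600000 reads in primed PSCs. A member had a median of 56 and 17 reads in the naive libraries and of 1, 2 and 6 reads in the primed libraries. A tile without reads is deposited as 0.9 reads, which puts the floor at -3.30, -3.13 and -4.89 in the primed libraries. Among the 6694 tiles, 10 had no read in any primed library and 3988 had at least 1 read in all 3, so most members were low rather than empty in primed PSCs. In naive replicate 2 the upper threshold corresponds to 13.5 reads, and in primed replicate 2 the lower one to 3.95 reads, so a few reads move a tile across a threshold in these shallow libraries. In bulk cells, a mark in fewer cells and a weaker mark in every cell cannot be told apart.

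The tiles crowded the edges of the rule. Of the members, 4028 had their lower naive value no more than 0.25 above the upper threshold, and 6402 tiles just outside lay within 0.25 below it and met the primed side of the rule. On the primed side, 967 members had their highest primed value within 0.25 of the lower threshold, and 2047 tiles lay just outside by as little. At the other extreme, 51 members had both naive values above 2 and 1897 had all primed values below -2. A total of 46678 tiles were above 1 in both naive libraries, and the members were 14.3% of them.

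The choice of tiles carried over in part to a library that had not been used to make it. When tiles were chosen without naive replicate 1, 45.0% of 14880 met the rule in that library, and without naive replicate 2, 48.4% of 13832 did, against 1.51% and 1.32% of all autosomal tiles. On the looser criterion of lying on the same side of 0, the shares were 91.5% and 95.4%. The share of all tiles above 0 was not computed, but their 90th percentile was below 0 in both libraries, at -0.745 and -0.432. For the held-out primed replicates 1, 2 and 3, 82.6%, 72.1% and 93.7% of the chosen tiles were below -1, a level that 86.3%, 85.4% and 89.5% of all tiles also meet. The primed shares were thus near those of all tiles and say little of how repeatable the primed side is.

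Mirror rules gave tiles to set beside the members. There were 3580 primed-only tiles (0.0623% of autosomal tiles) in 2820 regions, and 6068 tiles above 1 in all 5 libraries (0.106%) in 4568 regions, called tiles marked in both. The upper threshold had to hold in 3 primed but in 2 naive libraries, so the counts of naive-only and primed-only tiles cannot be compared with each other.

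The naive signal was a peak with a broad shoulder, and the primed signal at the same place was a shallow dip. The rule fixes high naive and low primed values at the centre tile, so the peak and the dip there follow from the choice. In primed replicate 3 the centre was slightly above the tile 0.5 kb before it, at 0.235 RPM. At the centre tile of the 5123 regions the mean was 2.77 and 2.62 RPM in the naive libraries and 0.189, 0.207 and 0.246 RPM in the primed libraries. At 1 kb before the centre the naive means were 1.49 and 1.39 RPM. At 10 kb before it they were still 0.802 and 0.835 RPM, against 0.304, 0.313 and 0.299 RPM in primed PSCs and 0.228 to 0.248 RPM over all autosomal tiles in the 5 libraries. The naive level around the regions was thus above the all-tile mean 10 kb away, while the primed level there was slightly above it.

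**Figure D1:**
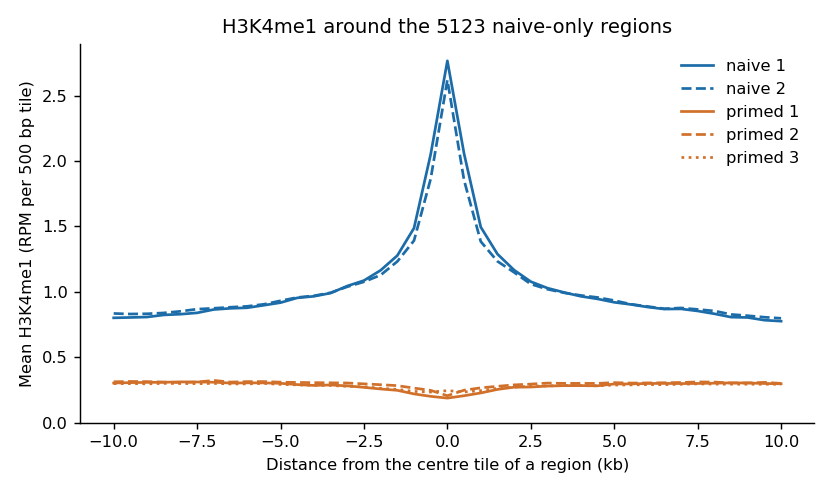
Mean H3K4me1 in RPM per 500 bp tile (vertical axis) against the distance in kb from the centre tile of the 5123 naive-only regions (horizontal axis), one line for each of the 2 naive and 3 primed libraries, with no error bars. The naive lines peak at 2.77 and 2.62 RPM and stand at 0.802 and 0.835 RPM 10 kb before the centre. There the primed lines stand at 0.299 to 0.313 RPM. They fall to between 0.189 and 0.246 RPM at the centre, where the rule fixes high naive and low primed values.

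Naive-only regions were short. Of the 5123 regions, 3919 (76.5%) were 1 tile, 940 were 2 tiles, 194 were 3 tiles and 70 were 4 or more, with a longest region of 4000 bp. Another tile above 1 in both naive libraries, one that missed the rule on the primed side, lay within 2 kb of 2154 regions (42.0%). The like share for primed-only regions, with another tile above 1 in all primed libraries, was 28.2%. A tile marked in both lay within 2 kb of 47 regions (0.917%) and within 5 kb of 169 (3.30%). For primed-only regions these shares were 0.816% and 2.55%. No such share was computed over all tiles, so nothing is read from these values about the members.

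Most members lay in introns or between genes. By GENCODE release 44, 49.1% of the tiles were intronic, 34.3% intergenic, 9.10% exonic and 7.54% in a promoter, which was taken to begin 1000 bp before a transcript start and end on it. Over all autosomal tiles the shares were 47.8%, 39.6%, 7.08% and 5.58%. Primed-only tiles were intronic in 64.3% and intergenic in 20.4%, and tiles marked in both lay in a promoter in 14.4%. The intergenic share of the naive-only tiles (95% Wilson interval 33.1 to 35.4%) was thus above that of primed-only tiles (19.1 to 21.7%) by more than counting error. These intervals, here and below, cover counting error only, and neighbouring tiles are not independent.

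The naive-only tiles were nonetheless close to genes. The median distance to the nearest transcript start of any gene was 7.26 kb, against 15.5 kb for all tiles and 10.5 kb for primed-only tiles. To the nearest protein-coding start it was 13.8 kb, against 46.9 kb for all tiles, 22.0 kb for primed-only tiles and 10.5 kb for tiles marked in both. A distance over 100 kb from a coding start was found for 6.21% of naive-only and 18.0% of primed-only tiles. Inside a protein-coding gene lay 2776 regions (54.2%), and in 91.0% of them that gene's own start was the nearest coding one. The regions had 2768 different nearest coding genes, of which 176 had 5 or more regions.

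Naive-only regions came in groups. Another naive-only region lay within 25 tiles of 47.0% of them (95% Wilson interval 45.7 to 48.4%), compared with 33.9% of the fewer primed-only regions and 44.9% of the regions marked in both. A share of this kind rises with the number of regions, so the sets are not on equal terms. Joining regions up to 25 tiles apart gave 3573 clusters, 2714 of them a single region, and 155 had 4 or more regions. The 209 clusters with 5 or more tiles held 23% of all naive-only tiles.

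The largest clusters lay at a small set of genes. On chromosome 4, 18 regions with 25 tiles ran over 81.5 kb through *TRIM60* and *TRIM61*, members of the tripartite motif family of ubiquitin ligases. On chromosome 5, 16 regions with 25 tiles covered 70.5 kb at *ANKRD55*, an ankyrin repeat gene, beside *IL6ST*, which encodes gp130, the receptor subunit shared by LIF and interleukin 6. At *ADCK1*, the gene of a mitochondrial protein, 24 tiles in 9 regions filled 30% of 40 kb. Further clusters lay at *UACA* (18 tiles), *SNX6* (18 tiles), *DNAJC15* (16 tiles), *PTGES* (16 tiles), near *TAF4B* (15 tiles) and near *GCM1* (15 tiles).

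Among the clusters with 12 or more tiles, the densest were at *MEG3*, a maternally expressed imprinted lncRNA of the *DLK1* domain, and at *DEPTOR*, which encodes an inhibitor of mTOR. At *MEG3*, 19 tiles in 5 regions made up 52.8% of 18 kb. Over these 19 tiles the median log2 RPM was 1.88 and 1.64 in naive PSCs and -3.30, -2.98 and -2.73 in primed PSCs. In primed replicate 1 the median tile was at the floor for a tile without reads. One further tile of the gene was above 1 in all primed libraries, so the mark was not absent from primed PSCs over the whole gene. At *DEPTOR*, 12 tiles made up 75% of 8 kb.

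The 10 longest regions were on chromosomes 14, 11, 8, 9 and 5. The longest, chr14:77796001-77800000, had 8 tiles and its centre lay 2.11 kb from the *ADCK1* start, with means of 1.53 and 1.49 in naive and -2.72, -2.48 and -2.18 in primed PSCs. The next, chr14:100820501-100824000, had 7 tiles in an intron of *MEG3*, with 1.85 and 1.74 in naive and -3.13, -2.55 and -2.72 in primed PSCs. A region of equal length, chr11:118973501-118977000, lay in an intron of *FOXR1*, a forkhead factor gene, with 1.52 and 1.5 in naive and -3.03, -2.84 and -3.02 in primed PSCs.

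Those longest regions differed in their promoter contacts. The *FOXR1* region was joined to the baits of *DDX6*, an RNA helicase gene, and *TREH*, the trehalase gene, in both states, although it was marked in naive PSCs alone. Regions of 6 tiles near *PPP2R5E*, in *EGLN3*, in *DEPTOR* and in *SWI5* and *TRUB2* had no listed bait in either state. The 5-tile regions named here are the 3 with the highest mean naive level of 15, an order set after the values were seen. A pair of them lay in *MEG3* with no bait, and chr5:37375501-37378000, near *WDR70*, was joined to the bait of the nucleoporin gene *NUP155* in naive PSCs.

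The single-tile regions with the highest mean naive level were in part doubtful. In chr14:74566501-74567000, in *LTBP2*, the values were 2.87 and 2.15 in naive and -1.15, -1.40 and -1.27 in primed PSCs, so the primed libraries were near the threshold. In chr20:29884001-29884500, which lay 1373 kb from the nearest coding start, they were 2.82 and 2.00 in naive and -1.15, -1.40 and -1.03 in primed PSCs. A second *LTBP2* tile, a tile in the promoter of *LINC02323* and a tile in *JDP2*, the gene of a repressor of AP-1, completed the highest 5. Of the 5, 4 were on chromosome 14.

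Chromosome 14 held more naive-only tiles than its length accounts for. It had 496 of them, or 23.2 per 10000 tiles, against 11.6 over all autosomes, and the next highest were chromosome 20 with 17.9 and chromosome 17 with 17.4. Chromosome 18 was lowest with 8.15 per 10000. Primed-only tiles did not share this pattern, with 4.44 per 10000 on chromosome 14 against 6.23 over all autosomes. The fullest windows of 1 Mb were on chromosome 14 as well, with 53 tiles at 77 Mb, 51 at 34 Mb and 44 at 100 Mb, where the mean over 2887 windows was 2.32.

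Reads outside marked tiles differed between the states by chromosome as well. Counted over tiles below 0 in all 5 libraries, the share of a library's reads that fell on chromosome 14 was 3.56% in both naive libraries and 3.03, 3.12 and 3.16% in the primed libraries, a log2 difference of 0.198 between the state means. Chromosomes 19, 22 and 17 had larger differences of 0.688, 0.309 and 0.303. They held 9.55, 9.15 and 17.4 naive-only tiles per 10000, so a larger difference did not always come with more tiles. In the Hi-C libraries the share of contacts between chromosomes differed by 0.0173 on the log2 scale at chromosome 14, with 0.472 at chromosome 21 and 0.339 at chromosome 19. With every library shifted per chromosome to an equal share of these background reads, chromosome 14 had 16.9 naive-only tiles per 10000 and the autosomes 12.1. The excess was then smaller and still present, and copy number, which the study's methods describe as examined from its Hi-C reads, was not computed here. The study describes the naive cells as normal in copy number on almost every chromosome, with its main alteration at chromosome 19 in both cell types.

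**Figure D2:**
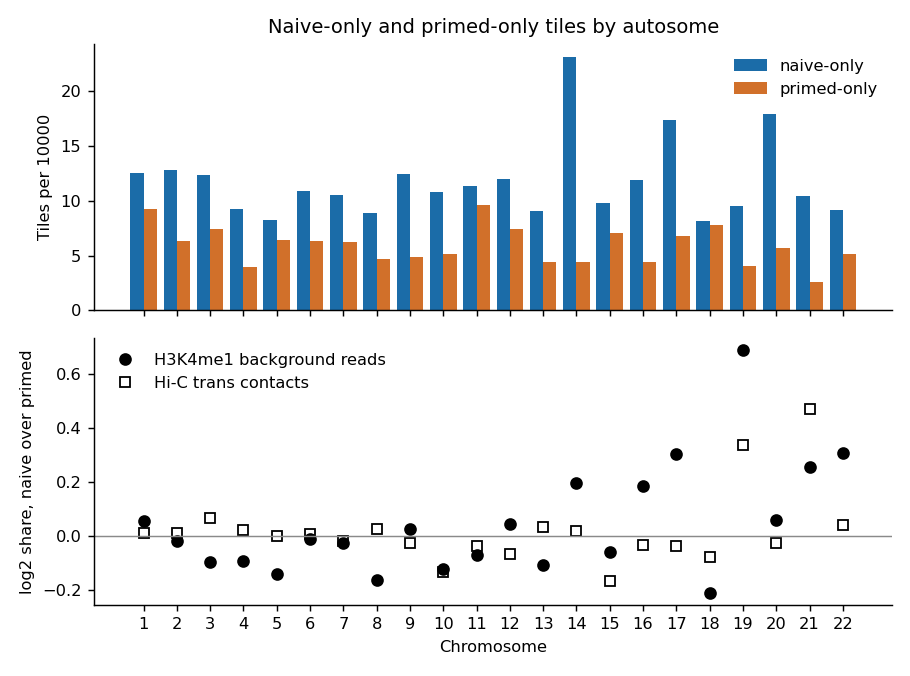
Upper panel: naive-only and primed-only tiles per 10000 tiles (bars) for each autosome. Lower panel: log2 ratio of naive to primed share of H3K4me1 background reads (filled circles) and of Hi-C contacts between chromosomes (open squares). Chromosome 14 has the tallest naive-only bar, 23.2 per 10000, with a background difference of 0.198 and a Hi-C difference of 0.0173.

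Most genes of a naive pluripotency list had a naive-only tile nearby. Of the 31 autosomal coding genes in a list of naive pluripotency genes, 22 (71.0%, 95% Wilson interval 53.4 to 83.9%) had at least 1 naive-only tile within 50 kb of a transcript start. Among all 19111 coding genes it was 4723 (24.7%). The list was written with results of these data known, so the count is a description. Neighbours on the list, such as *DPPA5*, *OOEP* and *KHDC3L*, share tiles and are not independent, which the interval leaves out. Without a tile within 50 kb were *NANOG*, *DPPA3*, *GDF3*, *SUSD2*, *ALPP*, *ALPG*, *ZFP42*, *NODAL* and *LIN28A*. At 100 kb the counts were 23 of 31 and 36.8%.

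Several of these genes carried many tiles. *KLF5*, a Krüppel-like factor gene, had 22 tiles within 50 kb, *TFCP2L1*, the gene of a transcription factor of the naive network, had 14, and *KLF4* and *TFAP2C*, which encode further factors of that network, had 9 each. The window shown around *KLF5* in the sequence and contact results held 16 tiles, with median log2 RPM of 1.35 and 1.33 in naive and -3.15, -3.06 and -2.28 in primed PSCs. Naive and primed values did not overlap at any of them, which the rule fixes. None of the tiles in this window was above 1 in all 3 primed libraries. *OOEP* and *KHDC3L*, whose products belong to the subcortical maternal complex of the oocyte, had 8 and 7 tiles, and *DPPA5*, a KH-domain gene expressed in pluripotent cells, had 7. These neighbours share tiles. *IL6ST* had 7, and *KLF17* and *TBX3*, transcription factor genes, had 2 each.

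Genes of the primed pluripotency list were seldom near a naive-only tile. Of 24 primed pluripotency genes, 1 had a tile within 50 kb, and that gene was *CD24*, a surface glycoprotein gene, with 3 tiles. Of 10 core pluripotency factor genes, 2 did, *SALL4* with 3 tiles and *PRDM14* with 2. Of 32 developmental transcription factor genes, 5 did (15.6%), led by *HOXC8* with 2 tiles. The counting intervals of the core and developmental shares, 5.67 to 51.0% and 6.86 to 31.8%, included the 24.7% of all coding genes. Housekeeping genes reached 5 of 14, among them *ACTB* and *EEF1A1* with 3 tiles each, so with lists this short the share alone moves widely.

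Signalling and lineage genes were between these. For the LIF and STAT3 pathway it was 4 of 14, the kinase *JAK1* with 8 tiles, *IL6ST* with 7, the receptor *IL6R* with 4 and the cytokine *IL6* with 1. For the FGF and ERK pathway it was 9 of 31, among them the receptor *FGFR3* with 5 tiles, the exchange factor *SOS1* with 4 and the ligand *FGF4* with 3. For the WNT pathway it was 8 of 23, with *AXIN1*, a part of the beta-catenin destruction complex, at 3 tiles. The counting interval of each of these shares included the 24.7% of all coding genes.

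Among lineage genes, trophectoderm and placental genes had a tile in 5 of 24. The genes named from each list are those with the most tiles, and most genes of this list had none. *GCM1*, a regulator of the syncytiotrophoblast, had 10 tiles, *PPARG*, a nuclear receptor gene, had 4 and *SLC7A2*, an amino acid transporter gene, had 3. Primitive endoderm genes had a tile in 6 of 16, with the transcription factor genes *GATA6* and *HNF4A* at 4 tiles each and the laminin gene *LAMA1* at 3. DNA methylation genes had a tile in 5 of 12, with the methyl-CpG binding protein gene *MBD2* and the dioxygenase gene *TET2* at 4 each and *DNMT3L* and *TET1* at 3 each. KLF and SP factors had a tile in 9 of 20, with *KLF5* and *KLF4* as above, *KLF11* at 5 and *KLF9* at 3. The counting intervals of the trophectoderm, primitive endoderm and DNA methylation shares included the 24.7% of all coding genes. That of the KLF and SP share, 25.8 to 65.8%, lay just above it. *GATA3*, *GDF3*, *NEUROG1* and *TFAP2A* had 0 tiles within 50 kb.

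The genes with the most tiles were mostly not on any of those lists. *SNW1*, a gene of a splicing and transcription cofactor, and *TRIM60* had 31 tiles each within 50 kb, *ADCK1* had 30, *ANKRD55* and *EGLN3*, a prolyl hydroxylase gene of the oxygen-sensing pathway, had 27 each, and *TRIM61* had 24. *KLF5* followed with 22, *TRIM75* with 21 and *TIAM1*, a Rac exchange factor gene, with 20. *RCOR1*, *SNX6* and *YPEL2* had 19 each. Of the genes named here, *SNW1*, *ADCK1*, *EGLN3*, *RCOR1* and *SNX6* lie on chromosome 14.

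**Figure D3:**
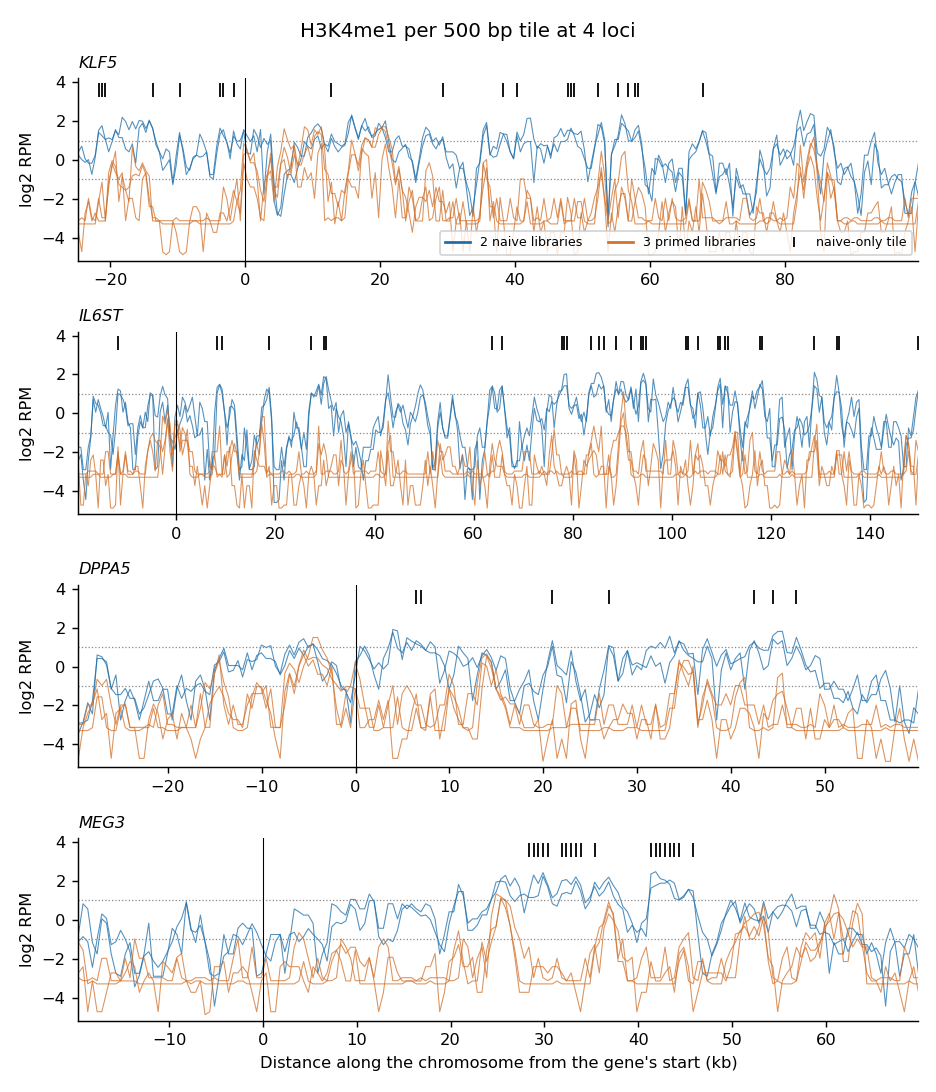
Log2 RPM per 500 bp tile against distance in kb along the chromosome from the gene's start (vertical line) at *KLF5*, *IL6ST*, *DPPA5* and *MEG3*, with blue lines for the 2 naive libraries, orange lines for the 3 primed libraries, dotted lines at 1 and -1 and ticks for naive-only tiles. The ticks run from -21.7 to 67.8 kb at *KLF5* and from -11.8 to 150 kb at *IL6ST* and are packed into 18 kb in *MEG3*, and between them lie tiles where the primed lines rise above -1.

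Naive-only tiles were found in promoter-interacting partner fragments more often than the average tile, and in those of naive PSCs more often than in those of primed PSCs. Of the 6694 tiles, 1263 (18.9%, 95% Wilson interval 17.9 to 19.8%) overlapped a partner fragment of the naive list and 977 (14.6%, 13.8 to 15.5%) one of the primed list. Over all autosomal tiles the shares were 8.71% and 9.29%, so the members stood 2.17 and 1.57 times above. Primed-only tiles showed the opposite order, 9.89% and 14%, and tiles marked in both had 22.1% and 20.1%. With 1 list per cell type, no replicates stand behind this order and no test was possible.

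The contrast was sharper for fragments listed in one state. Naive-only tiles lay in fragments that were partners in naive PSCs alone in 9.04% and in primed PSCs alone in 4.77%, a ratio of 1.90. For primed-only tiles the ratio was 0.443, for tiles marked in both 1.33 and for all tiles 0.841. A further 9.83% of the members lay in fragments that were partners in both states and 76.4% in partners of neither, so for most members no promoter contact was listed. At a CHiCAGO score of 10 in place of 5, the shares were 4.38% and 3.29%.

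The order of naive over primed held in each gene context. In introns 18.0% and 14.4% of naive-only tiles lay in naive and primed partner fragments, between genes 17.9% and 12.4%, in exons 21.5% and 17.7%, and in promoters 25.7% and 22.4%. Over all tiles the shares were 8.44% and 9.22% in introns, 5.49% and 6.09% between genes, 17.0% and 17.2% in exons and 23.2% and 22.5% in promoters, so the naive-only tiles stood well above all tiles in introns and between genes and near them in promoters. Primed-only tiles had the higher share in primed partner fragments in all 4 contexts. On chromosome 14 the naive-only shares were 14.5% and 11.7%, and on the other autosomes 19.2% and 14.8%.

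**Figure D4:**
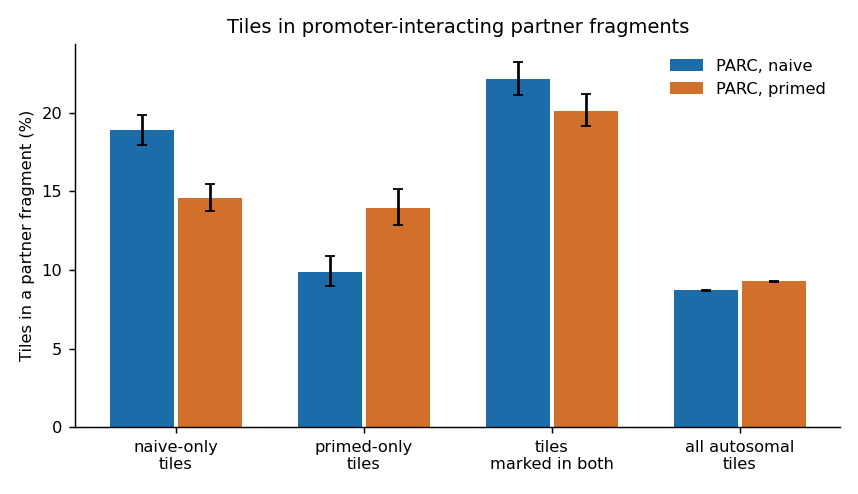
Percent of tiles (vertical axis) in a PCHi-C partner fragment of the naive list (blue) and of the primed list (orange) for naive-only tiles, primed-only tiles, tiles marked in both and all autosomal tiles, with 95% Wilson intervals that cover counting error only. Naive-only tiles stand at 18.9% and 14.6%, and primed-only tiles at 9.89% and 14%.

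Counted as interactions, 1542 of 79330 naive interactions (1.94%) and 1127 of 88985 primed ones (1.27%) ended on a naive-only tile. The lists shared 588 of them, which left 954 in naive PSCs alone and 539 in primed PSCs alone. Over all interactions the primed list was the longer one, with 39970 in naive PSCs alone and 49625 in primed PSCs alone. Tiles of 1 fragment share its interactions, so these are counts of fragment pairs and not of independent tiles. Interactions that ended on a member spanned a median of 154 kb in naive and 224 kb in primed PSCs, against 239 and 308 kb over all interactions of each list.

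Of the 5123 regions, 981 (19.1%) had a listed bait in naive PSCs and 746 (14.6%) in primed PSCs. Both states contacted 504 of them, naive PSCs alone 477 and primed PSCs alone 242, and 3900 had no bait in either. The contacted genes were set beside the nearest coding gene. Among the 861 regions contacted in naive PSCs by a bait with a coding promoter, the nearest coding gene was among the contacted genes for 204 (23.7%), and in primed PSCs for 94 of 615 (15.3%). No such share was computed for all tiles or the other sets, so nothing is read from these values about the members. On the promoter side, 1175 baits contacted a member in naive PSCs, 851 of them a single region and 25 of them 5 or more.

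The baits joined to the most naive-only regions in naive PSCs were those of *TRIM61* (11 regions, 1 in primed PSCs), *ELF3*, an ETS factor gene of epithelia (7 and 1), *OOEP* (7 and 0), *EEF1A1* with *MTO1*, an elongation factor gene and a gene of mitochondrial tRNA modification (7 and 3), *IL6ST* (7 and 0) and *H2AZ2*, a histone variant gene (7 and 0). *ZFAND5* and the fragment of *DPPA5* and *KHDC3L* had 6 and 0 each. A bait without a coding promoter on chromosome 1 had 8 and 4, and another on chromosome 2 had 6 and 0. Of the other baits with 6 naive regions, *AHSG* had 6 primed regions and *SLC17A5* 5, while *TBRG4* and a bait without a coding promoter on chromosome 10 had 0. Some of these baits had few primed contacts of any kind. Over all listed contacts, naive and primed, *TRIM61* had 21 and 3, *OOEP* 16 and 1 and *ELF3* 6 and 2. *IL6ST* had 6 and 0, the fragment of *DPPA5* and *KHDC3L* 5 and 0 and *TBRG4* 5 and 1. Others had more, such as *H2AZ2* (13 and 4), *EEF1A1* with *MTO1* (19 and 11) and *ZFAND5* (19 and 10). At baits with few primed contacts, a low primed count was thus not particular to naive-only regions.

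At *IL6ST* the contacts ran into the *ANKRD55* cluster. The bait, which holds the *IL6ST* promoter, was joined to 7 naive-only regions between 79.9 and 129 kb away, all in naive PSCs. The fragment at 79.9 kb had 41 reads and a CHiCAGO score of 7.56, and those at 89.1, 96.0 and 129 kb had 30, 28 and 23 reads with scores of 5.48, 5.55 and 6.12. All 4 scores were near the threshold of 5, and the primed list held none of these pairs. The window held 32 naive-only tiles, 12 of them in naive and 0 in primed partner fragments, with median log2 RPM of 1.37 and 1.42 in naive and -3.15, -2.98 and -2.57 in primed PSCs. The AP-1, KLF4-type and TCF and LEF letters of the sequence shown for this locus lie in a tile of the fragment at 96.0 kb.

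At *DPPA5* the contacts with the most reads were those with the nearest fragments. The fragment of *DPPA5* and *KHDC3L* was joined to the fragment of *OOEP* at 19.1 kb with 185 reads and a score of 9.10, and to a fragment in *DDX43*, an RNA helicase gene, at 36.9 kb with 51 reads and a score of 5.99. The *OOEP* bait was joined to the same *DDX43* fragment at 17.9 kb with 97 reads and a score of 6.73. Weaker pairs lay farther off. The *DPPA5* bait had contacts of 10 reads each at 244 and 246 kb, with scores of 5.29 and 5.33, and the *OOEP* bait had 19 reads at 98.6 kb and 10 reads each at 225 and 277 kb, with scores of 5.35, 5.14 and 6.4. All of these pairs were in the naive list alone. The *DDX43* tile shown above had log2 RPM of 1.60 and 1.42 in naive and -3.15, -2.98 and -1.73 in primed PSCs. The bait of *EEF1A1* and *MTO1* reached the *DDX43* fragment as well, at 97.7 kb with a score of 11.61, so it was not confined to naive genes, and the *SLC17A5* bait contacted tiles of this locus in both states.

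At *ELF3*, the strongest contact was with a fragment 107 kb away, with 41 reads and a score of 25.69 in naive PSCs. Nearer fragments at 77.6, 88.0 and 93.9 kb had 27, 23 and 33 reads and scores of 6.74, 6.51 and 11.65. In the other direction, a fragment 122 kb away was listed in both states, with 25 reads and a score of 7.68 in naive and 20 reads and 5.03 in primed PSCs. The naive-only regions in the fragment at 107 kb were contacted by 6 baits in naive and by 1, that of *SHISA4*, in primed PSCs.

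At *TRIM61*, 11 naive-only regions were joined to the bait in naive PSCs. The bait lies within the cluster, and so does the nearest contacted fragment, 13.1 kb away, with 156 reads and a score of 6.01. A second fragment of the cluster, 33.9 kb away, had 85 reads and a score of 8.69 and held 5 of the regions, among them the tile whose sequence is shown. More distant fragments in and beside *SMIM31*, at 195 to 225 kb, had 15 to 24 reads and scores from 6.47 to 11.53. One of these, at 209.5 kb, was also in the primed list, with 36 reads and a score of 5.55.

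Dense H3K4me1 did not always come with a listed contact. None of the 19 *MEG3* tiles, the 14 *TFCP2L1* tiles or the 9 *KLF4* tiles lay in a partner fragment of either state. At *KLF5*, 8 of 16 tiles lay in naive and 0 in primed partner fragments, and the baits that contacted them held no coding promoter. At *ADCK1* and *SNW1* the order was turned, with 3 of 24 tiles in naive and 16 in primed partner fragments. The primed contacts there came from 1 bait without a coding promoter, with at most 6 reads and a score of at most 5.35. At *TFAP2C*, 5 of 9 tiles lay in naive and 3 in primed partner fragments. These contacts came from 1 bait without a coding promoter. It had at most 9 reads and a score of at most 5.3 in naive, and 16 reads and 6.74 in primed PSCs. The *TFAP2C* bait itself was joined to 0 naive-only regions in naive and 1 in primed PSCs.

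Promoters contacted by naive-only regions themselves had more H3K4me1 in naive PSCs. This uses the same libraries and contrast as the rule, so nothing is read from it beyond the values. Of the 14357 baited fragments that held no naive-only tile, both naive libraries were above all primed libraries in 32.2% and below them in 17.5%. Of the 1078 of them that were contacted by a naive-only region in naive PSCs, the shares were 52.4% and 8.35%. The median difference was 0.54 on the log2 scale against 0.14 over all. For the 102 fragments contacted by 3 or more such regions, 60.8% were above and the median difference was 0.91. For the 348 contacted in primed PSCs alone it was 41.1% and 0.33.

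The naive-only tiles were moderately rich in GC. Their median GC content was 45.2%, against 40% over all tiles, 47.8% in primed-only tiles and 48.8% in tiles marked in both. They had a median of 5 CpG, and 0.478% had 25 or more, against 1.29% of all tiles and 2.37% of tiles marked in both.

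Letters that match known factor motifs differed between the sets. Exact matches on both strands were counted per tile, and a match is a description of the sequence, not of binding. The KLF4-type motif GGGNGTGG was in 26.4% of naive-only tiles, 14.2% of primed-only tiles, 21.2% of tiles marked in both and 11.4% of all tiles. The TFAP2 motif GCCNNNGGC was in 14.5% of naive-only, 16.5% of primed-only and 7.22% of all tiles. The ZIC motif CAGCAGG was in 12.2%, 24.7% and 9.16%, and the CTCF core AGGGGGC in 5.11%, 11.1% and 4.18%. When all tiles and primed-only tiles were weighted to the GC content of the naive-only tiles, in classes of 2 percentage points, the KLF4-type motif stood at 16.8% of all and 10.8% of primed-only tiles, and the TFAP2 motif at 9.87% and 12.6%. The order of naive-only and primed-only tiles for TFAP2 thus turned with GC content. Tiles marked in both had the TFAP2 motif in 20.1%, and in 14.6% on this weighting. A high TFAP2 share was thus not particular to naive-only tiles. On this weighting the naive-only shares were 0.982 times that of all tiles and 0.557 times that of primed-only tiles for the ZIC motif, and 0.879 and 0.592 times for the CTCF core.

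Motifs of further factors stood below, near or above their share over all tiles. The OCT octamer ATTTGCAT was in 3.78% of naive-only, 5.14% of primed-only, 7.32% of tiles marked in both and 4.97% of all tiles. The SOX motif ACAATGG was in 6.81% against 7.33% of all tiles, the TEAD motif ACATTCC in 7.84% against 7.86%, the GATA motif AGATAAG in 7.59% against 7.04%, the AP-1 motif TGANTCA in 15.2% against 14.8% and the TCF and LEF motif ATCAAAG in 6.53% against 8.26%. The STAT3 motif TTCCNGGAA was in 1.78% against 1.19%, the ESRRB motif TCAAGGTCA in 0.866% against 0.693%, the E-box CACGTG in 5.32% against 4.59% and the GC box GGGCGGGG in 2.17% against 1.31%. Weighted to the GC content of the naive-only tiles, all tiles had the OCT octamer in 3.57% and the GC box in 1.59%, so the low OCT share against all tiles went with GC content, while the STAT3 and GC box shares of the naive-only tiles were still 1.42 and 1.37 times as high. Primed-only tiles had the OCT octamer in 6.51% on the same weighting. The weighted STAT3 share was 1.63% in primed-only tiles and 1.70% in tiles marked in both, and the GC box share 1.66% and 2.92%. The higher STAT3 and GC box shares were thus not particular to naive-only tiles.

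The OTX letters GGATTA were in 38.1% of naive-only tiles, 16.1% of primed-only tiles and 30.4% of all tiles. Of the naive-only tiles with GGATTA, 59.2% held GGATTACA, as did 14.6% of such primed-only tiles and 47.2% of all such tiles. GGATTACA is a word of Alu elements, a family of primate short interspersed repeats. The words GGATTACA and GGCTCACG, taken up after the motif values had been seen, were then counted as signs of an Alu. At least one of them was in 24.7% of naive-only tiles (95% Wilson interval 23.7 to 25.7%), 3.10% of primed-only tiles (2.58 to 3.72%), 4.88% of tiles marked in both and 15.4% of all tiles. No repeat annotation was used here, so an old or truncated Alu without these words is not counted and a copy of the words outside an Alu is.

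The order of the Alu-word shares held in each gene context, and the naive-only share stayed above that of all tiles without each library. Between genes it was 28.7% in naive-only and 2.61% in primed-only tiles, in introns 24.2% and 3.22%, in exons 16.6% and 3.31% and in promoters 19.8% and 3.25%. Chosen without 1 library at a time, naive-only tiles had the words in 23.1 to 32.6%, the highest being without naive replicate 1. Without chromosome 14 it was 24.4%, and with the libraries scaled per chromosome 24.3%.

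The words were less frequent in tiles of high signal. Over all autosomal tiles, those with a mean naive log2 RPM of -2 to -1 held an Alu word in 21.2%, those of -1 to 0 in 22.7%, those of 0 to 1 in 21.4%, those of 1 to 2 in 14.7% and those of 2 to 3 in 6.74%. By the mean primed level the same bands had 13.7%, 11.2%, 8.04%, 4.82% and 2.80%. Tiles above 1 in both naive libraries, whatever their primed level, had a word in 13.6%, below the 15.4% of all tiles and the 24.7% of naive-only tiles. Among all tiles with a GC content of 40 to 50%, those with an Alu word had a lower mean log2 RPM than those without in the primed libraries, -2.72, -2.47 and -2.91 against -2.30, -2.13 and -2.49, and a slightly higher one in the naive libraries, -2.62 and -2.01 against -2.68 and -2.13. The naive and primed libraries thus differed over Alu-bearing tiles in general, marked or not, and the placing of reads from near-identical copies was not tested.

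Naive-only tiles with and without an Alu word had like H3K4me1 levels, as the rule bounds both, and differed in gene context. Their medians in primed replicate 2 differed by the smallest step between read counts, in a library where members had a median of 2 reads. The 1653 tiles with a word had median log2 RPM of 1.31 and 1.33 in naive and -3.15, -2.98 and -2.15 in primed PSCs, and the 5041 without had 1.39 and 1.33 in naive and -3.15, -1.98 and -2.15 in primed PSCs. Tiles with a word were intergenic in 39.8%, exonic in 6.11% and in a promoter in 6.05%, and those without in 32.5%, 10.1% and 8.03%. Partner fragments of naive and primed PSCs held 20.5% and 16.0% of the first and 18.3% and 14.1% of the second. In the tiles without an Alu word the KLF4-type motif was in 21.5% of naive-only, 14.3% of primed-only and 8.64% of all tiles. Tiles marked in both had it in 20.8%, so it was about as frequent there as in naive-only tiles. A further word of Alu copies, GGGCGTGG, is itself a match to this motif and was not removed. Among tiles with the KLF4-type letters it was present in 33.5% of naive-only, 4.72% of primed-only and 25.8% of all tiles, so matches within Alu copies can remain in these shares. The OTX letters were in 19.5%, 14.2% and 18.5%, closer together than with the Alu words included.

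**Figure D5:**
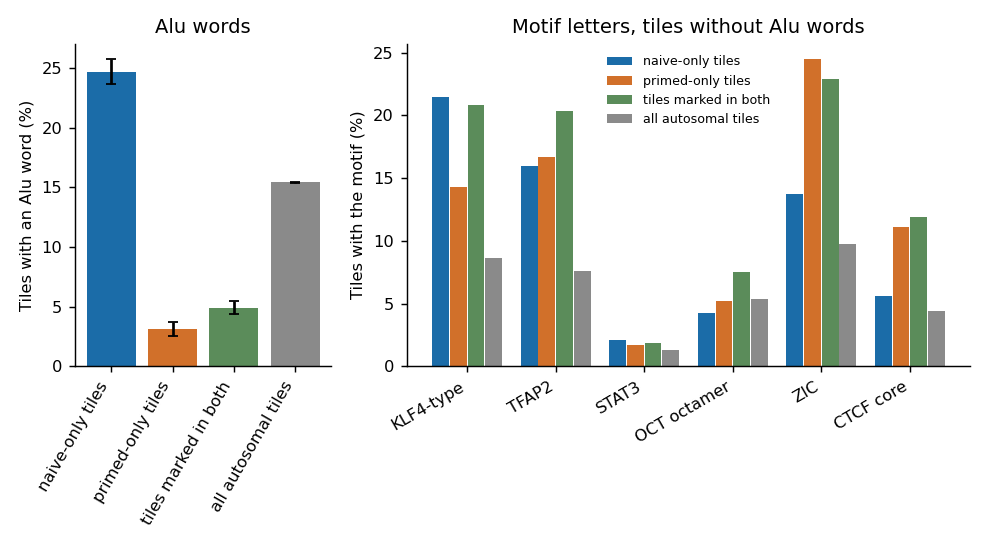
Left: percent of tiles with an Alu word (GGATTACA or GGCTCACG) in 4 sets of tiles, with 95% Wilson intervals that cover counting error only. Right: percent of tiles with the letters of 6 motifs among tiles without an Alu word, with no error bars. Naive-only tiles stand at 24.7% for the Alu words and, without them, at 21.5% for the KLF4-type motif and 13.7% for the ZIC motif. Tiles marked in both stand at 20.8% for the KLF4-type motif, and primed-only tiles at 24.5% for ZIC.

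In the Hi-C libraries, the 100 kb bins that held naive-only tiles differed little from others in their contacts with other chromosomes. The 2884 bins with a naive-only tile had a median log2 ratio of naive to primed share of 0.0279, against 0.00355 over all 25875 bins, and the quartiles of all bins were -0.139 and 0.160. The 318 bins with 5 or more tiles had 0.0217. With 1 library per state these differences have no replicate check.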

How the data were processed

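H3K4me1 CUT&RUN, PCHi-C and Hi-C of naive and primed PSCs were analysed, with groups and replicates taken from the sample labels. NANOG, SOX2 and input ChIP-seq were not analysed here. The authors made the H3K4me1 files by trimming with Trim Galore 0.5.0 and mapping to GRCh38 with Bowtie2 2.3.2, and deposited 1 log2 RPM value for each tile of 500 bp and library. Tiles without reads carry the value of 0.9 reads. Read extension to 300 bp and exclusion of coverage outliers are stated by the study for quantitation. For PCHi-C, the authors used HiCUP and CHiCAGO, combined 2 replicates and deposited the interactions with a CHiCAGO score of at least 5 and their combined read number. For Hi-C, the deposited values are counts of di-tags per pair of 100 kb bins, of which contacts between chromosomes were used.

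Tiles were chosen by the rule given in the results and merged when adjacent. The members, gene lists, motifs and tests were chosen with earlier results of these data known, so nothing here is independent support for them. Depth was read from the whole-read steps of the log2 values (100% whole within 0.01). Gene context came from GENCODE release 44, with promoter before exon before intron. A tile was in a partner fragment when it overlapped it by any base. Shares have 95% Wilson intervals. The study's libraries were all used by the rule, so no test between the states was run on H3K4me1. Named are the 10 longest regions and 5 highest single tiles, the 10 coding genes with the most tiles within 50 kb (with ties), the 10 baits with the most naive regions, up to 4 genes of each list and the genes the study names. Loci with sequences were taken from these. A few genes and sequences that this rule takes are not reported here. The soft-masked share planned for the tiles could not be computed because the genome used is in upper case. The scripts were tested on simulated data and used matplotlib 3.10.9, scipy 1.17.1, pandas 2.3.3 and numpy 2.4.6 in Python 3.11.15. Alternatives covered thresholds, scaling, left-out libraries, score, overlap, promoter width, gene set and distance. Leaving out chromosome 14, scaling per chromosome, leaving out tiles with Alu words and the Alu-word share itself were added after the data had been seen.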

Additional observations from a re-analysis of the deposited data

How the results depend on the processing

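Of 167 alternative values for 24 results, 104 stayed within the spread set for them and 63 moved. Thresholds of 2 and -2 left 12 tiles in 12 regions, too few for the shares to be read, with 25% in naive and 33.3% in primed partner fragments, 0% in promoters, 8.33% in exons, 91.7% in introns and 0% between genes, 16.7% of regions with a neighbour, 5.33 kb as the median distance to a transcript start and 8.33% with an Alu word. Thresholds of 0.5 and -0.5 gave 36807 tiles in 23319 regions, with 51.7% in introns, 31.5% between genes, 67.9% of regions with a neighbour, a median distance of 6.81 kb and 27.7% with an Alu word. Scaling the libraries to the same 90th percentile gave 4625 tiles, with 8.30% in promoters, 47.2% in introns and 42.6% of regions with a neighbour. The values without 1 library at a time ran from 7145 to 14880 tiles, from 5476 to 11268 regions, from 17.5 to 19.3% in naive and from 14 to 15.4% in primed partner fragments, from 6.98 to 8.29% in promoters, from 8.45 to 9.20% in exons, from 48.0 to 50.2% in introns, from 33.0 to 34.5% between genes, from 47.6 to 59.0% of regions with a neighbour, from 6.61 to 7.69 kb and from 23.1 to 32.6% with an Alu word. The number of tiles was 14880 without naive replicate 1 and 13832 without naive replicate 2, against 6694 with all libraries, and primed-only tiles numbered 10927 without primed replicate 2, against 3580. The naive share stayed above the primed share of partner fragments for naive-only tiles, and below it for primed-only tiles, without each library, with the looser thresholds, with both scalings and without chromosome 14. Among the 12 tiles of the stricter rule the order for naive-only tiles was the reverse. Tiles without an Alu word had 10.1% in exons, 32.5% between genes and 41.7% of regions with a neighbour. Regions of 2 or more tiles numbered 1204. Partner shares in naive and primed PSCs were 4.38% and 3.29% at a score of 10, 13.4% and 9.47% without pairs of baits, and 17.7% and 13.7% with an overlap of at least 250 bp. A promoter of 2.5 kb to each side gave 23.3% promoter, 5.39% exon, 40.4% intron and 30.9% intergenic tiles, and protein-coding genes alone gave 4.38%, 7.08%, 42.5% and 46.1% with a median distance of 13.8 kb. The share of regions with a neighbour was 35.5% at 5 kb and 56.4% at 25 kb. No paired analysis was possible because no test between the states was run and the shared replicate numbers of naive and primed libraries name no common culture. The shallow naive replicate 2 and primed replicates 1 and 2 limit how firmly a single tile can be called, and the interaction lists have no replicates.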
